A study of Mus musculus with 54 samples.

Results

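Striatum of C57L/J mice was compared with striatum of C57BL6/J mice, 3 arrays against 3, out of 18 striatum arrays and 54 arrays in the whole series. The arrays were chosen by their labelled tissue and strain alone. Both groups were male inbred mice with no stated transgene or treatment, killed at postnatal day 60. Each array read a pool of whole striatum from 3 mice, with hemispheres alternated. In each strain 1 array came from mice whose startle had been tested from postnatal day 50 for prepulse inhibition, in which a soft sound dampens the reaction to a loud one, and 2 came from untested mice. They are called the tested array, untested array 1 and untested array 2, and values are given in that order. A pool is not a single mouse, so the tests measure the spread between pools on arrays. The 3 tissues of a strain came from the same 12 mice, with no key to which pools share them.

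The striatum is the input station of the basal ganglia. Most of its neurons are GABAergic projection neurons with D1 or D2 dopamine receptors, which receive glutamatergic fibres from the cortex that lies over it and dopaminergic fibres from the midbrain. C57L/J is an inbred strain related to C57BL/6J with a dilute, leaden coat. Genes of inbred strains often differ in level by fixed sequence differences, and an array probe set can also lose signal where a strain's sequence differs from the probe.

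The untested C57L/J pools had lower striatal and higher cortical marker levels than any C57BL6/J pool, and the tested C57L/J pool did not. The defining striatal transcripts were high on all 6 arrays, so each array read striatal tissue. This does not show that each pool held striatum alone. Drd1, the D1 dopamine receptor, stood at 13.78, 13.10 and 12.41 on the C57L/J arrays and at 13.83, 13.76 and 13.64 on the C57BL6/J arrays (log2 level, as are all levels below). Drd2, the D2 receptor, stood at 12.78, 12.33 and 11.51 against 12.70, 12.81 and 12.72. The tested C57L/J array lay within or next to the C57BL6/J arrays for both receptors, untested array 1 lay lower and untested array 2 lower still. Penk, the enkephalin precursor of D2 neurons, was at 15.07, 14.91 and 14.57 against 14.91, 15.04 and 14.94. Tac1, the substance P precursor of D1 neurons, was at 14.09, 13.71 and 13.27 against 14.19, 14.07 and 13.94. Ppp1r1b, the phosphatase inhibitor DARPP-32, was at 13.87, 13.59 and 12.98 against 13.87, 13.93 and 13.79. The same order of the 3 C57L/J arrays, tested above untested 1 above untested 2, held for all 24 measured striatal projection neuron markers.

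Most cortical transcripts ran the other way. Of 17 measured cortical glutamatergic markers, 14 rose on the C57L/J arrays from tested to untested 1 to untested 2, and 1 fell in that order. Rorb rose from 7.03 on the tested array to 9.42 on untested array 2 but was lower in C57L/J (difference -1.18). Lamp5 differed by -0.07. Slc17a7, the vesicular glutamate transporter of cortical neurons, stood at 7.99, 11.99 and 12.72 on the C57L/J arrays and at 8.01, 6.17 and 9.42 on the C57BL6/J arrays. Tbr1, a transcription factor of deep cortical layers, stood at 6.16, 10.24 and 10.94 against 6.87, 4.72 and 7.86. Neurod6, a transcription factor of cortical pyramidal neurons, stood at 5.58, 10.34 and 10.85 against 6.90, 4.57 and 7.33. For each of the 3 genes both untested C57L/J arrays lay above every C57BL6/J array, and the tested C57L/J array lay among them. The C57BL6/J arrays were themselves uneven, with untested array 2 the highest and untested array 1 the lowest for these genes. Neurod2, Neurod1 and Cplx3, further genes of cortical glutamatergic neurons, reached 6.62, 6.48 and 6.29 on C57L/J untested array 2, against 1.81, 2.86 and 2.39 on the tested array.

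**Figure D1:**
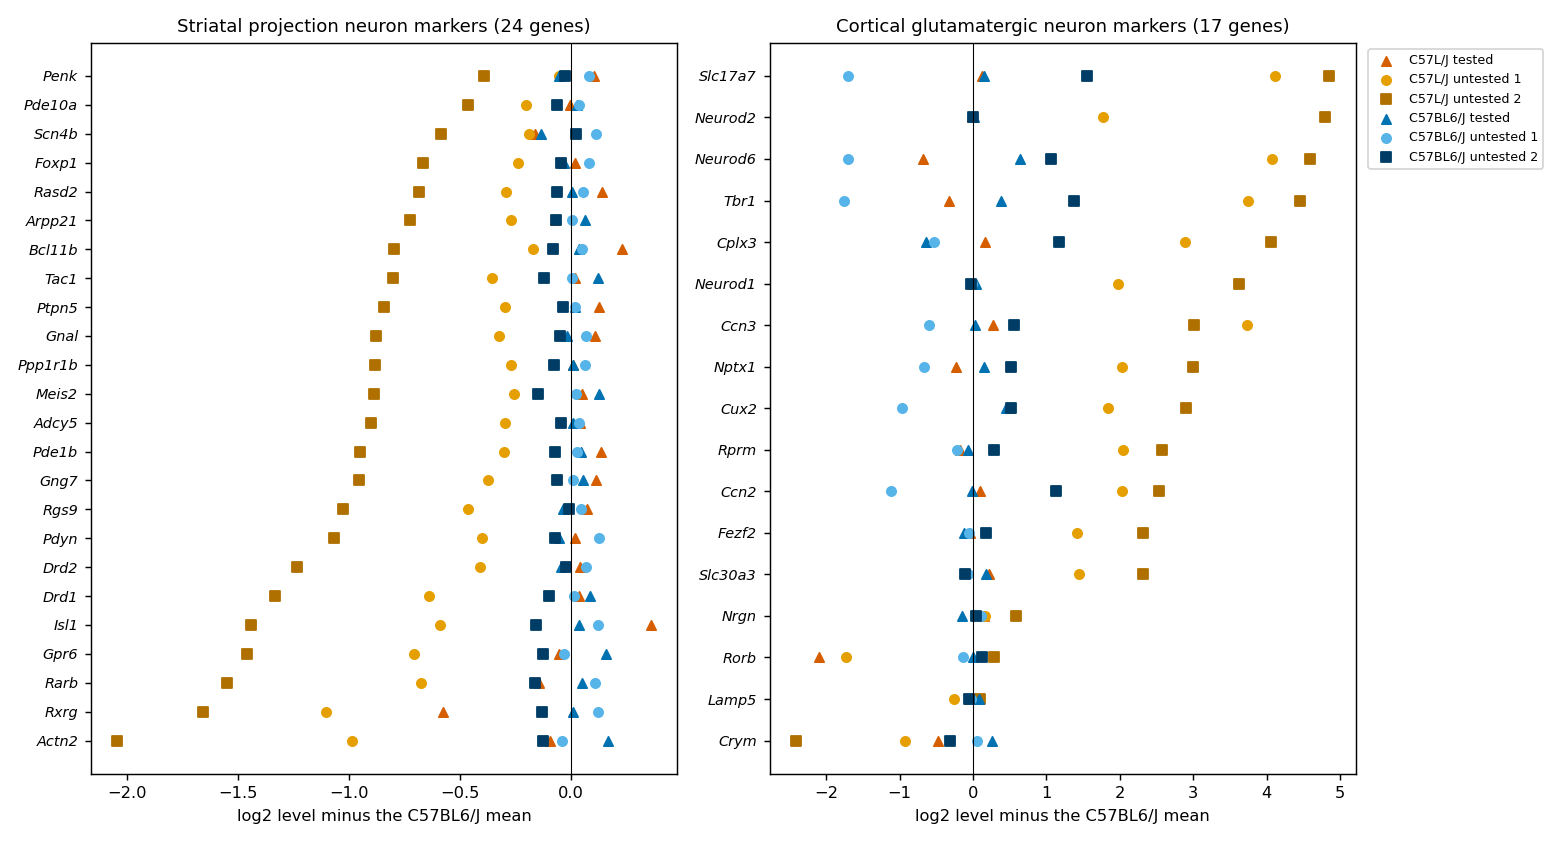
Log2 level of each striatal projection neuron marker (left, 24 genes) and cortical glutamatergic neuron marker (right, 17 genes) on the 3 C57L/J and 3 C57BL6/J striatum arrays, minus the mean of the C57BL6/J arrays. Points are single arrays; C57L/J untested arrays 1 and 2 lie left of the others for most striatal genes and right of them for most cortical genes, while the tested C57L/J array lies near 0 for most genes of both panels.

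As a list, striatal projection neuron markers had a mean level of 0.08, -0.35 and -0.95 on the C57L/J arrays, in log2 units from the median of all 18 striatum arrays. The C57BL6/J arrays lay at 0.09, 0.11 and -0.02, and the 12 arrays of the other 4 strains between -0.28 and 0.09. Both untested C57L/J arrays were thus below the range of the other strains. Cortical glutamatergic markers had levels of -0.59, 1.35 and 2.13 on the C57L/J arrays, -0.36, -0.99 and 0.03 on the C57BL6/J arrays and -1.07 to 1.10 elsewhere. Both untested C57L/J arrays were above the range of the other strains for this list. In bulk tissue, fewer cells of a type and less RNA per cell cannot be told apart.

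Markers of other tissues and cells varied in several ways. Thalamic markers stood at -0.02, 0.81 and 0.66 on the C57L/J arrays and between -0.10 and -0.04 on the C57BL6/J arrays, and interneuron markers at -0.14, 0.62 and 0.73 against -0.42 to 0.00. Thalamic levels stayed within the -0.15 to 1.09 of the other strains. For interneuron markers both untested C57L/J arrays lay above the -0.34 to 0.60 of the other strains. The interneuron mean was carried by Vip, Cck and Pvalb, and 5 of its 11 genes fell from the tested to untested array 1 to untested array 2 (median difference between the strains -0.11). Within the thalamic list the shift was carried by Slc17a6, the second vesicular glutamate transporter, at 3.71, 7.35 and 8.07 against 3.46, 3.79 and 3.78, and by Ntng1, an axon guidance ligand, at 6.40, 7.73 and 7.63 against 6.25, 6.39 and 5.98. Choroid plexus markers split both strains, with 2.33, 2.09 and 0.31 in C57L/J and 1.89, -0.79 and 0.11 in C57BL6/J. Their highest gene, Ttr, the transthyretin carrier protein, was at 16.00, 15.89 and 15.55 against 15.76, 12.44 and 15.04. Meningeal fibroblast markers, 3 genes, were highest on the tested C57L/J array, at 1.05, 0.50 and -0.01 against 0.27, -0.01 and -0.02. Hippocampal, cholinergic, oligodendrocyte, oligodendrocyte precursor, ependymal and microglial lists differed by less than 0.5 between any 2 of the 6 arrays. For hippocampal markers both untested C57L/J arrays (-0.098 and -0.216) lay below the -0.095 to 0.188 of the other strains, as did C57BL6/J untested array 2 (-0.122). All 11 oligodendrocyte markers were higher on C57L/J untested array 2 than on the tested array, and 8 rose in the cortical order. Their level on untested array 2 was 0.36 in C57L/J and 0.34 in C57BL6/J, both above the -0.35 to 0.27 of the other strains. C57L/J untested array 2 was also outside for precursor markers (0.22, others up to 0.18) and cholinergic markers (-0.13, others down to -0.12). Septal and pallidal markers stood at 0.16, 0.09 and -0.53 in C57L/J, the last outside the -0.23 to 0.37 of the other strains, against -0.12 to -0.01 in C57BL6/J. Olfactory and claustral markers ran from -0.72 to 0.28 over the 6 arrays, endothelial markers from -0.21 to 0.39 and astrocyte markers from -0.23 to 0.33. With the cortical level of each array as a covariate, 342 genes were called in the strain comparison in place of the 530 given below.

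**Figure D2:**
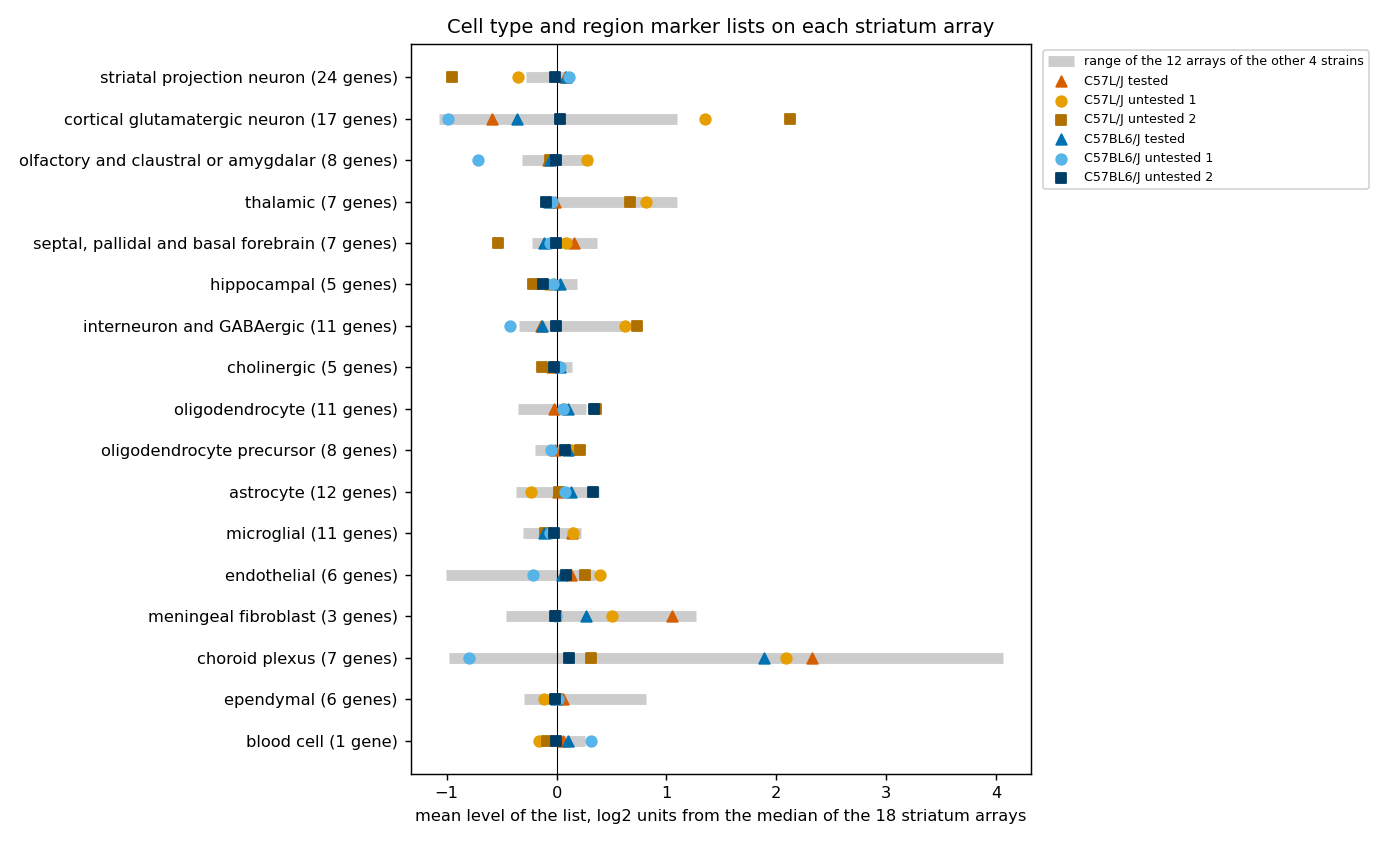
Mean log2 level of 17 marker lists on each C57L/J and C57BL6/J striatum array, from the median of the 18 striatum arrays; grey bars give the range of the 12 arrays of the other 4 strains. C57L/J untested arrays 1 and 2 lie outside the grey bar for striatal projection neuron markers (-0.35 and -0.95) and cortical glutamatergic markers (1.35 and 2.13). They also lie outside it, by less, for interneuron markers (0.62 and 0.73) and hippocampal markers (-0.098 and -0.216). Untested array 2 alone of the pair lies outside it for septal and pallidal, oligodendrocyte, oligodendrocyte precursor and cholinergic markers. Choroid plexus markers are near 2 on 3 of the 6 arrays.

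Across all 12320 genes tested the same unevenness showed. The 3 C57BL6/J arrays correlated with one another at r = 0.996 to 0.997 (across genes, which are not independent replicates). The tested C57L/J array correlated at 0.990 with untested array 1, at 0.980 with untested array 2 and at 0.993 with the tested C57BL6/J array. On 823 genes (6.68%) the C57L/J arrays spanned more than 1 log2 unit, against 135 genes (1.10%) in C57BL6/J and 185 to 526 genes in the other strains. The tested C57L/J array lay over 2-fold away from both untested arrays on 264 genes, above them on 34 and below them on 230. Array medians lay between 4.17 and 4.31 on the striatum arrays. Gapdh probe sets for the 3' end read 0.17 to 0.33 above those for the 5' end on the C57L/J arrays, in no order with the marker levels.

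The genes furthest apart between the tested C57L/J array and the nearer untested array were named by rule, as a description. Lowest on the tested array were Vip, Neurod6, Tbr1, Cadps2 and Slc17a7. Vip, a peptide of cortical interneurons, stood at 4.06, 9.24 and 10.13 against 4.08, 2.74 and 4.06, and Cadps2, a regulator of vesicle release, at 6.54, 10.59 and 11.85 against 7.12, 5.38 and 7.66. Highest on the tested array were Cap1, A2m, Dcn, Gm38396 and Fst. Dcn, the proteoglycan decorin of connective tissue, stood at 6.14, 4.44 and 4.12 against 4.56, 4.45 and 4.15, and A2m, a protease inhibitor, at 5.58, 3.85 and 3.86 against 3.90, 3.69 and 3.87. Cap1, an actin regulator, stood at 7.65, 5.20 and 5.63 against 8.22, 7.81 and 7.69, where the 4 other strains averaged 12.52 to 12.73.

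**Figure D3:**
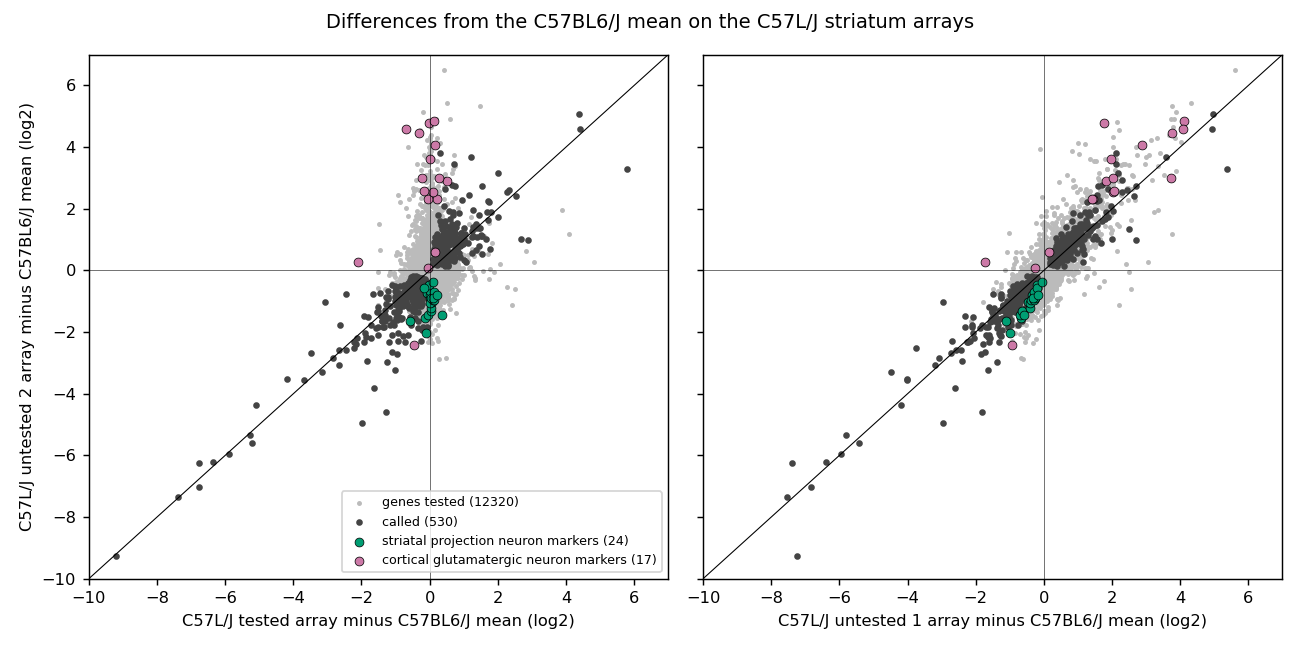
Difference of each of 12320 genes from the C57BL6/J mean on C57L/J untested array 2 (vertical axis, log2) against the same difference on the tested C57L/J array (left) and on untested array 1 (right); the diagonal marks equal differences, dark points the 530 called genes, and coloured points the striatal and cortical markers. Most cortical markers stand high on untested array 2 and near 0 on the tested array, while the genes with the lowest differences lie close to the diagonal in both panels.

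Against this background the strain comparison called 530 of the 12320 genes (4.3%) in limma at a Benjamini-Hochberg adjusted p under 0.05, where 2610 passed an unadjusted 0.05. Of these, 266 were higher in C57L/J (2.16%) and 264 lower (2.14%), and 164 differed over 2-fold, 68 higher and 96 lower. The 3 C57L/J and 3 C57BL6/J arrays did not overlap on 2925 genes (23.7%), including 521 of the called genes. The median difference over all genes was -0.01. On 471 called genes the 3 C57L/J arrays agreed within 1 log2 unit. On the other 59 they spanned more, a larger share than the 6.68% of all genes. On 253 called genes the tested C57L/J array lay within 0.5 of the C57BL6/J mean, a count not made over all genes.

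The number of calls depended on single arrays. Without the tested C57L/J array 1884 genes were called, among them 512 of the 530. Without C57L/J untested array 1 the count was 333, without untested array 2 it was 300, and without both, an alternative chosen after seeing the data, it was 157, of which 133 were among the 530. That fit has 1 C57L/J array, which is assumed to vary like the arrays of the other groups, so its calls are no replicate check. Leaving out a C57BL6/J array gave 381, 261 and 315 calls for the tested array, untested array 1 and untested array 2. Of the 530 genes, 217 kept their call whichever 1 of the 6 arrays was left out, and 122 kept it also without both untested C57L/J arrays. Of the 164 over 2-fold, 119 and 89 did so, the 89 being 28 higher and 61 lower.

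Genes higher in C57L/J were led by Prss56, Gdpd3 and Cfap54. Prss56, a trypsin-like serine protease gene on chromosome 1, stood at 7.35, 6.92 and 4.84 in C57L/J and at 1.56, 1.54 and 1.53 in C57BL6/J. The difference was 4.83 ± 0.48 (SE; adjusted p = 2.09e-05), and the other 4 strains averaged at most 2.41. The groups were far apart, but C57L/J untested array 2 was lower than the other pair. Gdpd3, a lysophospholipase D gene on chromosome 7, stood at 6.06, 6.65 and 6.77 against 1.71, 1.69 and 1.68, a difference of 4.81 ± 0.11 (adjusted p = 2.25e-12). No other strain averaged above 1.69 for Gdpd3. Neither gene rose above the 40th percentile of any C57BL6/J array, the level used here as the limit of measurable signal, so these are bounds of at least 8.96-fold and 9.77-fold.

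Cfap54, a gene of motile cilia on chromosome 10, stood at 7.80, 8.32 and 7.97 against 3.61, 3.22 and 3.32, a difference of 4.64 ± 0.30 (adjusted p = 1.86e-07). Its next brightest probe set, below the 40th percentile on all 6 arrays, gave 0.05. The level of Cfap54 was not particular to C57L/J, since C3H HeJ averaged 7.72 and BalbC/J 7.21. C57BL10/J and C57BLKS/J averaged 3.47 and 3.87. Serpina3n, an acute-phase serine protease inhibitor made by reactive astrocytes, stood at 3.64, 6.02 and 6.10 against 2.48, 2.42 and 2.41, a difference of 2.82 ± 0.43 (adjusted p = 0.00126) and at least 4.13-fold. The tested C57L/J array was the lowest of its strain for Serpina3n, and it alone gave a difference of 1.13. Alad, the second enzyme of haem synthesis, stood at 10.11, 10.23 and 9.99 against 7.81, 7.51 and 7.38, a difference of 2.54 ± 0.15 (adjusted p = 8.52e-08). All 3 C57L/J arrays agreed closely for Alad, and 2 of 2 probe sets were called higher, the next at 0.78.

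Wdfy1, an endosomal adaptor, stood at 10.21, 10.24 and 10.48 in C57L/J against 8.09, 7.89 and 7.87 in C57BL6/J, a difference of 2.36 ± 0.11 (adjusted p = 5.28e-09). The other 4 strains averaged 10.42 to 10.47, so C57BL6/J was the strain apart for this gene. Ifit2, an interferon-induced gene, stood at 6.35, 6.51 and 7.50 against 4.44, 4.23 and 4.39, a difference of 2.44 ± 0.31 (adjusted p = 2.07e-04). For Ifit2 it was C57L/J that stood apart, since the other strains averaged 4.37 to 4.64. Mamdc2, an extracellular matrix gene, was higher by 2.19 ± 0.38, with 6.06, 5.86 and 4.15 against 3.21, 3.15 and 3.15. Hhatl, related to the Hedgehog acyltransferase, was higher by 2.32 ± 0.28, with 6.12, 7.29 and 7.32 against 4.84, 4.28 and 4.65.

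Slc15a2, the peptide transporter PEPT2, was higher by 2.46 ± 0.24 on its brightest probe set, at 7.92, 8.03 and 8.22 against 5.86, 6.06 and 4.87. Its next probe set was lower by 0.75 (difference -0.75, adjusted p = 0.159), and the mean of its probe sets reversed the call, at -0.90, so its direction depends on the probe set. The last 2 of the 12, 9430021M05Rik (2.10 ± 0.53) and Grik1 (1.90 ± 0.48), rose in the order of the cortical markers on the C57L/J arrays. The next probe set of 9430021M05Rik, above the 40th percentile on all 6 arrays, gave 0.03, not called. Grik1, a kainate receptor subunit, stood at 5.46, 7.29 and 7.93 against 4.79, 5.42 and 4.78. Both genes lost their call without any 1 of 5 of the 6 arrays, the exception being the tested C57L/J array (adjusted p up to 0.187 and 0.186), and at 0.88 and 0.53 without both untested C57L/J arrays.

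**Figure D4:**
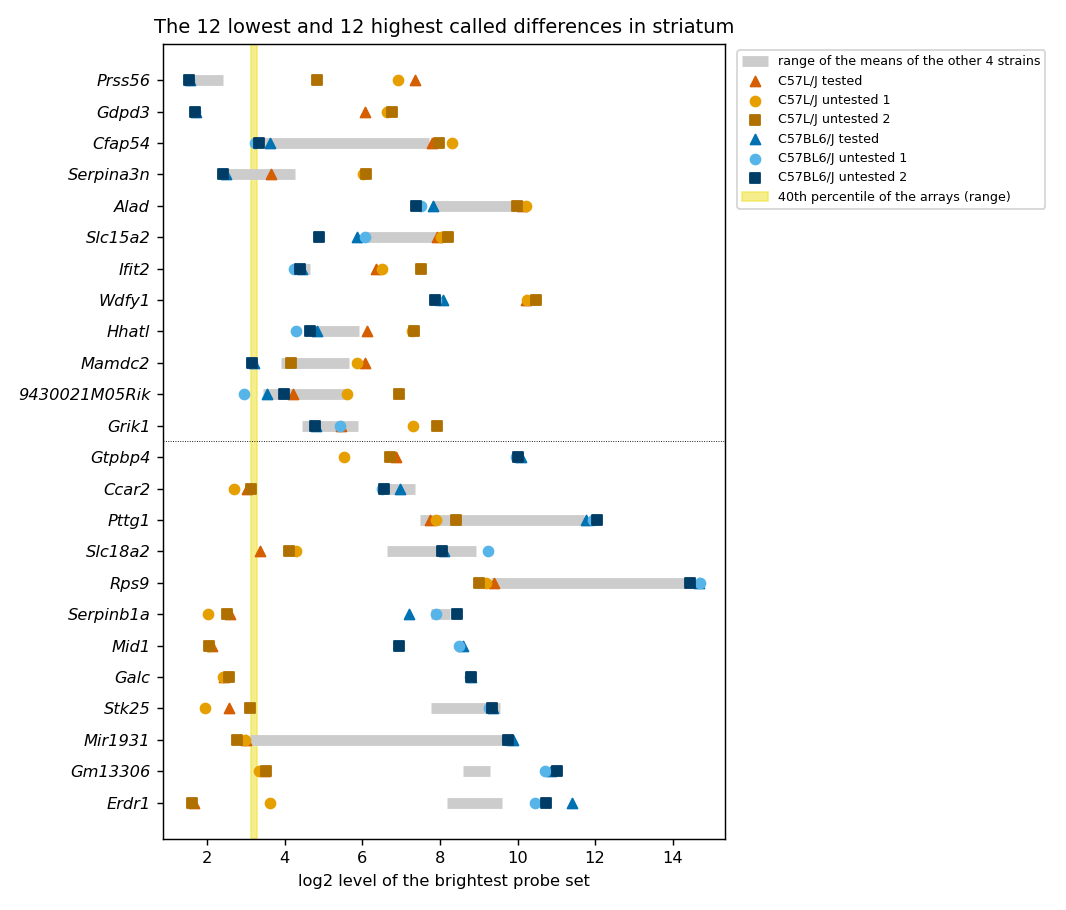
Log2 level of the 12 genes with the highest and the 12 with the lowest called differences on the 3 C57L/J and 3 C57BL6/J striatum arrays; grey bars span the means of the other 4 strains and the yellow band the 40th percentiles of the arrays. Gdpd3 and Ifit2 stand out in C57L/J alone, Wdfy1 and Mid1 in C57BL6/J alone, and the 3 C57L/J arrays lie together for most of the lower genes.

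Genes lower in C57L/J had larger differences, and several gave no signal above the 40th percentile in C57L/J. Stk25, a serine/threonine kinase of the Golgi, stood at 2.56, 1.95 and 3.09 in C57L/J and at 9.37, 9.26 and 9.35 in C57BL6/J, a difference of -6.79 ± 0.22 (adjusted p = 1.01e-10) and at least 71.3-fold. The other 4 strains averaged 7.77 to 9.54, so C57L/J was the strain apart. Galc, the lysosomal galactosylceramidase that breaks down myelin lipids, stood at 2.44, 2.41 and 2.56 against 8.80, 8.77 and 8.80, a difference of -6.32 ± 0.10 (adjusted p = 1.02e-14) and at least 49.1-fold. The 3 arrays of each strain agreed closely for Galc on this probe set, but its next probe set, above the 40th percentile on all 6 arrays, gave 1.08, not called. Whether sequence differences under the probes set such values was not tested.

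Erdr1, a pseudoautosomal locus present in several similar copies, stood at 1.66, 3.62 and 1.61 against 11.40, 10.46 and 10.74, a difference of -8.57 ± 0.44 (adjusted p = 1.43e-08). Mid1, an X-linked ubiquitin ligase that in C57BL/6 mice spans the pseudoautosomal boundary next to Erdr1, stood at 2.12, 2.05 and 2.06 against 8.58, 8.49 and 6.95, a difference of -5.93 ± 0.28 and at least 28.5-fold. The other 4 strains averaged 2.09 to 2.12 for Mid1, so C57BL6/J stood apart, whereas they averaged 8.17 to 9.59 for Erdr1, where C57L/J stood apart. Gm13306, on chromosome 4, which belongs to a family of near-identical Ccl27-like copies that the array may not separate, stood at 3.48, 3.33 and 3.52 against 10.87, 10.72 and 11.02 (difference -7.43 ± 0.28).

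Serpinb1a, an inhibitor of neutrophil proteases, stood at 2.58, 2.03 and 2.51 against 7.19, 7.89 and 8.44, a difference of -5.47 ± 0.29 (at least 25.4-fold). Ccar2, a nuclear regulator of apoptosis and deacetylation, stood at 3.01, 2.68 and 3.14 against 6.98, 6.51 and 6.56, a difference of -3.74 ± 0.19 (at least 11.4-fold). Pttg1, the securin of chromosome segregation, stood at 7.73, 7.90 and 8.40 against 11.75, 11.95 and 12.06, a difference of -3.91 ± 0.17, and its next probe set gave -4.62, also called. A pair of genes differed on 1 probe set and not on the next. Rps9, a ribosomal protein gene with processed copies elsewhere in the genome, differed by -5.41 ± 0.25 on the brightest probe set and by -0.05 on the next. Gtpbp4, a GTPase of ribosome assembly, differed by -3.65 ± 0.25 and -0.19 in the same way.

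Mir1931 was the third lowest gene. The probe set assigned to this microRNA gene stood at 3.01, 2.96 and 2.77 in C57L/J and at 9.88, 9.73 and 9.74 in C57BL6/J, a difference of -6.87 ± 0.21 (adjusted p = 4.18e-11) and at least 97.9-fold. The groups were 6 log2 units or more apart. The other 4 strains split, with C3H HeJ and BalbC/J both averaging 3.10, C57BL10/J 9.46 and C57BLKS/J 9.73. A 3' expression array reads a longer transcript, not the mature microRNA. The mature sequence is shown because it is the annotated product of the locus. RefSeq places it on the plus strand at chr10:93162879-93162900 (GRCm38.p6), inside the gene Cdk17, and bases 2 to 8, the seed that pairs with targets, are in capitals.
mmu-miR-1931: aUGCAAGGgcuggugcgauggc
Cdk17, the host kinase gene, stood at 13.26, 13.18 and 12.93 against 13.19, 13.35 and 13.17 (difference -0.11, adjusted p = 0.495), and the groups overlapped. A transcript of the microRNA locus and an unspliced part of Cdk17 could not be told apart by this probe set.

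Other strains showed which of the pair stood apart. Of the 164 genes over 2-fold, the means of all 4 other strains lay nearer to C57BL6/J than to C57L/J for 70, of which 51 were lower in C57L/J. For 8 genes, Wdfy1 and Mid1 among them, all 4 lay nearer to C57L/J. Of 101 of the 164 genes with another probe set, 74 had it above the 40th percentile on at least 3 of the 6 arrays. Among those 74, the second probe set was called in the same direction for 29, and differed by less than 0.25 for 23.

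Among genes of dopamine handling, 1 of 7 measured was called, against 4.3% of all genes. Slc18a2, the vesicular monoamine transporter VMAT2 that loads dopamine into vesicles, stood at 3.37, 4.29 and 4.11 in C57L/J against 8.10, 9.25 and 8.05 in C57BL6/J. The difference was -4.55 ± 0.48 (adjusted p = 3.97e-05), it held whichever array was left out, and it was -5.38 without both untested C57L/J arrays. All 3 C57L/J arrays were more than 3 log2 units below all C57BL6/J arrays, and the other 4 strains averaged 6.63 to 8.92. The gene had 1 probe set, so no second reading was at hand. Th and Slc6a3, of the same list, did not pass the signal filter in striatum. What the Slc18a2 probe set reads there was not tested. Maob, the monoamine oxidase of glia, gave -0.40 (9.14, 8.91 and 9.14 against 9.37, 9.42 and 9.61), not called. Ddc, the decarboxylase that makes dopamine, gave -0.11, and Maoa 0.15, neither called.

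Of 15 measured genes of dopamine receptor signalling none was called by limma, where 4.3% of all genes were. All 15 differences were below 0 (median -0.38, against -0.01 over all genes). For 14 of the 15 the C57L/J arrays fell in the order tested, untested 1, untested 2, the order of the striatal markers. The list levels were 0.09, -0.30 and -0.77 on the C57L/J arrays and 0.00 to 0.10 on the C57BL6/J arrays. Of the 24 striatal projection neuron markers, 9 of which also belong to that list, only Rxrg was called in limma, against 4.3% of all genes. Their median was -0.38, with a range from -1.11 to -0.11. Without the tested C57L/J array 20 of the 24 were called, in a fit that called 1884 of all 12320 genes. Without both untested C57L/J arrays the median of the 24 was 0.03.

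Rxrg, a retinoid X receptor of projection neurons, stood at 10.42, 9.89 and 9.34 in C57L/J against 11.00, 11.12 and 10.86 in C57BL6/J, a difference of -1.11 ± 0.22 (adjusted p = 0.00943). The groups did not overlap, and Rxrg was lower than in C57BL6/J also on the tested array, but it followed the order of the other striatal markers. Its call ended without C57BL6/J untested array 1 (-1.03, adjusted p = 0.0559), and without both untested C57L/J arrays it was -0.55 (adjusted p = 0.588). Drd1 gave -0.65 ± 0.21 (adjusted p = 0.0999), Drd2 -0.53 ± 0.21 (0.161), Tac1 -0.38 ± 0.14 (0.149), Ppp1r1b -0.38 ± 0.14 (0.147) and Penk -0.11 ± 0.09 (0.545), and none of these passed in limma.

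Of 17 cortical glutamatergic markers 1 was called higher and 1 lower, with a median of 1.60. Over all genes 2.16% were called higher and 2.14% lower. Slc30a3, the zinc transporter of glutamatergic vesicles, stood at 6.69, 7.93 and 8.79 against 6.65, 6.42 and 6.37 (difference 1.33 ± 0.35, adjusted p = 0.0487). The tested C57L/J array lay at the level of C57BL6/J, and the call ended without any 1 array but that one (adjusted p up to 0.194), with a difference of 0.19 without both untested C57L/J arrays. Crym, a thyroid hormone binding protein also abundant in striatal neurons, stood at 12.33, 11.88 and 10.39 against 13.06, 12.85 and 12.49 (difference -1.27 ± 0.32, adjusted p = 0.0361). Crym moved with the striatal rather than the cortical markers on the C57L/J arrays, and its call ended without any 1 C57BL6/J array (adjusted p up to 0.147). Slc17a7 (3.03 ± 1.42), Neurod6 (2.66 ± 1.54) and Tbr1 (2.63 ± 1.25) were not called in limma (adjusted p = 0.237, 0.353 and 0.244). Without the tested C57L/J array 13 of the 17 were called, in a fit that called 1884 of all 12320 genes. Without both untested C57L/J arrays the median of the 17 was -0.02.

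Neuropeptide precursors had 1 of 11 called higher and 1 lower, where 2.16% of all genes were called higher and 2.14% lower. Nts, the neurotensin precursor, stood at 6.09, 5.54 and 2.78 against 7.44, 7.34 and 7.30, a difference of -2.56 ± 0.56 (adjusted p = 0.0175). All C57L/J arrays were lower, untested array 2 by far the most, and the call ended without either untested C57BL6/J array (adjusted p = 0.0780 and 0.0647). Without C57L/J untested array 2 the difference was -1.57. Npy, neuropeptide Y of striatal and cortical interneurons, stood at 11.28, 11.70 and 11.72 against 11.05, 11.11 and 11.27, a difference of 0.42 ± 0.10 (adjusted p = 0.0288). Its call ended without any 1 array but the tested C57L/J one (adjusted p up to 0.140). Vip (4.18), Cck (2.23) and Crh (1.94), peptides of cortical neurons, were not called.

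Among GABA-A receptor subunits 1 of 9 was called higher, against 2.16% of all genes. Gabra2, the alpha 2 subunit, stood at 12.02, 11.79 and 11.38 in C57L/J against 10.63, 10.21 and 10.23 in C57BL6/J, a difference of 1.37 ± 0.16 (adjusted p = 1.35e-04). The groups did not overlap, the next probe set gave 1.11, also called, and the call held whichever 1 array was left out. The other strains averaged 11.68 to 11.91, so C57BL6/J was low. Glutamate receptor subunits had 2 of 19 called higher, Grik1 being the first, and 1 lower, against 2.16% and 2.14% of all genes. Grm8, a metabotropic receptor, was higher by 0.48 ± 0.12 at a low level (4.37, 3.99 and 4.21 against 3.65, 3.70 and 3.79). Grin2b, an NMDA receptor subunit, was lower by 0.37 (difference -0.37 ± 0.08), with 10.45, 10.36 and 10.67 against 10.84, 10.79 and 10.94, but 0.03 on its next probe set. Grm8 lost its call without any 1 array but C57L/J untested 1 (adjusted p up to 0.119), and Grin2b without C57L/J untested 1, C57BL6/J tested or C57BL6/J untested 2 (up to 0.105).

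Astrocyte markers had 1 of 12 called higher and 3 lower, with a median of 0.03, where 2.16% of all genes were called higher and 2.14% lower. Slc1a3, the glutamate transporter GLAST, stood at 11.83, 11.60 and 11.59 in C57L/J against 13.05, 13.18 and 13.23 in C57BL6/J, a difference of -1.48 ± 0.08 (adjusted p = 1.75e-08) that held whichever array was left out. Its next probe set, above the 40th percentile on all 6 arrays, gave 0.10, and Slc1a2, the other glial glutamate transporter, gave 0.07, so the list as a whole did not move with Slc1a3. Etnppl, a pyridoxal phosphate-dependent lyase of phosphoethanolamine, stood at 7.04, 5.48 and 6.73 against 9.15, 8.71 and 9.88, a difference of -2.83 ± 0.50 (adjusted p = 0.00422). Its second probe set gave -1.90, also called, and the other strains ranged from 2.99 to 9.61. Without both untested C57L/J arrays Etnppl was at -2.12, not called (adjusted p = 0.283).

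Gfap, the intermediate filament of reactive astrocytes, stood at 10.42, 10.64 and 10.84 against 9.47, 9.34 and 10.19, a difference of 0.96 ± 0.26 (adjusted p = 0.0491), and 1.02 on its next probe set. The groups did not overlap, but the call ended without either untested C57L/J array, C57BL6/J tested or C57BL6/J untested 1 (adjusted p up to 0.210). Slc4a4, a bicarbonate transporter, was lower (difference -0.36 ± 0.07), a call lost without C57BL6/J untested array 1 (adjusted p = 0.0540). Microglial markers had 2 of 11 called higher, against 2.16% of all genes. P2ry12, the purine receptor of surveying microglia, stood at 9.77, 10.18 and 9.70 against 9.19, 9.39 and 9.39 (difference 0.56 ± 0.12), and Ctss, cathepsin S, at 12.24, 12.17 and 11.94 against 11.72, 11.76 and 11.85 (difference 0.34 ± 0.09). P2ry12 lost its call without C57L/J untested 1, C57BL6/J tested or C57BL6/J untested 1 (adjusted p up to 0.0810), and Ctss without any 1 array but C57L/J untested 2 (up to 0.161). Complement genes of the same list gave 0.16 for C1qa, -0.05 for C1qb and -0.05 for C1qc, none called. Oligodendrocyte markers (11), oligodendrocyte precursor markers (8) and endothelial markers (6) had no member called by limma, against 4.3% of all genes. Their medians were 0.02, 0.07 and 0.23.

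Activity-regulated genes had 2 of 13 called lower and 12 of 13 differences below 0 (median -0.62), where 2.14% of all genes were called lower and their median was -0.01. Egr2 stood at 9.70, 8.62 and 8.25 against 10.11, 10.35 and 10.52 (difference -1.47 ± 0.34, adjusted p = 0.0240), and Junb at 9.08, 8.78 and 8.34 against 9.79, 10.24 and 10.31 (difference -1.38 ± 0.34, adjusted p = 0.0327). Both are immediate early transcription factors. The strains did not overlap for either gene, but both calls ended without any 1 of the 4 untested arrays (adjusted p up to 0.126 and 0.147). Without both untested C57L/J arrays the differences were -0.63 for Egr2 and -1.22 for Junb. Of the 13 genes, 6 fell on the C57L/J arrays in the order of the striatal markers, Egr2 and Junb among them, and 2 rose. Fos stood at 8.65, 9.08 and 8.96 against 9.43, 10.16 and 10.22 (difference -1.04, adjusted p = 0.230) and was not called, and Bdnf ran the other way at 1.95, with 2.17, 4.72 and 5.64 against 2.18 to 2.30. In C57BL6/J the tested array was the lowest of the 3 for Egr2, Junb and Fos.

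Loci known as strain-variable in mice had 4 of 11 called higher and 4 lower, against 2.16% and 2.14% of all genes. The list was chosen with results of these data known and is no independent evidence. Besides Alad, Wdfy1, Gabra2, Stk25, Mid1, Erdr1 and Cap1 it held Nnt, the mitochondrial transhydrogenase of which C57BL/6J mice carry a deletion, at 11.52, 11.23 and 11.21 against 10.32, 10.10 and 9.99 (difference 1.19). All 3 C57L/J arrays lay above all C57BL6/J arrays for Nnt. Glo1, glyoxalase 1, gave 0.02. Of Cap1, C57BL6/J held 7.69 to 8.22 and C57L/J less still (difference -1.74 ± 0.37), a call that ended without either untested C57L/J array or C57BL6/J untested 1 (adjusted p up to 0.0738), at -0.33 without both untested C57L/J arrays.

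Pdxdc1, the gene named in the study's title, did not differ detectably. It stood at 8.58, 8.72 and 8.73 against 8.84, 8.70 and 8.65, a difference of -0.05 ± 0.21 (adjusted p = 0.904), and -0.02 on its next probe set. The arrays of the strains overlapped. Of 18 measured pyridoxal phosphate-dependent enzymes only Etnppl was called (median -0.08), against 4.3% of all genes. Of 14 prepulse inhibition or schizophrenia candidates none was called by limma (median -0.06), where 4.3% of all genes were. A list this short cannot be set apart from that share. Circadian clock genes had 1 of 16 called higher, against 2.16% of all genes. It was Nr1d2, a nuclear receptor of the clock, higher by 0.22 ± 0.05, a call that ended without any 1 untested array (adjusted p up to 0.161). Glucocorticoid-responsive (13), chaperone (15), MHC (4) and coat colour genes (4) had none called, against 4.3% of all genes. Their medians were -0.30, -0.03, 0.07 and 0.20.

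Called genes were not spread evenly over the chromosomes. On chromosome 1 it was 61 of 730 tested genes (8.36%) and on chromosome 13 it was 36 of 479 (7.52%), against 18 of 971 (1.85%) on chromosome 2. Among runs of 20 neighbouring tested genes, the densest, on chromosome 9, held 10 called genes. Filip1, an actin-linked regulator of neuronal migration, stood there at 7.22, 6.31 and 5.45 against 8.18, 8.16 and 8.16, and Htr1b, a serotonin receptor, at 11.67, 10.65 and 9.95 against 12.26, 11.71 and 11.67. Both followed the order of the striatal markers on the C57L/J arrays, whereas Elovl4, a fatty acid elongase at the end of the run, was even at 10.73, 10.65 and 10.77 against 10.39, 10.14 and 10.15. These neighbours were named after their values were seen.

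A run on chromosome 15 with 7 called genes ended with Slc1a3. Oxct1, the ketone body transferase of mitochondria, stood there at 12.90, 12.77 and 12.65 against 14.23, 14.31 and 14.32 (difference -1.52 ± 0.06), and Ghr, the growth hormone receptor, at 5.95, 5.52 and 4.81 against 6.80, 7.24 and 7.37 (difference -1.71). In a run on chromosome 10, Cfap54 and Mir1931 lay close together with opposite differences of 4.64 and -6.87, beside Ndufa12, a subunit of respiratory complex I, at 12.61, 12.47 and 12.62 against 13.25, 13.33 and 13.21 (difference -0.70). The C57L/J arrays were even for Oxct1 and Ndufa12.

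The same contrast in hippocampus called 541 of 12315 genes (4.39%) and in brainstem 410 of 12484 (3.28%). Of the 24 genes with the highest and lowest striatal differences 23 were tested in each of these tissues, and 20 of the 23 were called in the same direction in both. The tissues shared mice, so this is no independent support. Prss56, the leading higher gene in striatum, was the gene not tested in either. It averaged 1.44 in C57L/J and 1.47 in C57BL6/J in hippocampus, and 1.49 in both strains in brainstem. The strain effect itself differed between striatum and hippocampus for 85 of 11847 genes (0.717%) and between striatum and brainstem for 242 of 11764 (2.06%). Without the tested C57L/J striatum array these counts were 1151 and 1338, without untested array 2 they were 38 and 60, without C57BL6/J untested array 1 they were 37 and 91, and without both untested C57L/J arrays 35 and 30.

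Gdpd3 was higher in C57L/J in all 3 tissues, by 4.81 in striatum, 6.12 in hippocampus and 6.63 in brainstem, and its effect was smaller in striatum than in either (adjusted p = 4.88e-06 and 2.53e-10). C57BL6/J averaged 1.69, 1.62 and 1.65 in these tissues, so the sizes followed the C57L/J means of 6.49, 7.75 and 8.28. Mir1931 differed by -6.87, -5.14 and -0.98 in striatum, hippocampus and brainstem, and Cfap54 was higher by 4.64, 3.89 and 1.37. C57BL6/J itself averaged only 3.50 for Mir1931 in brainstem, against 9.79 in striatum and 7.62 in hippocampus. A low level thus left little room for a difference in brainstem. For Cfap54 the brainstem means were 4.71 in C57L/J and 3.34 in C57BL6/J. Arhgef15, a gene of blood vessel cells, differed by -1.46 ± 0.13 in striatum, with 7.16, 7.04 and 6.85 against 8.48, 8.50 and 8.46, but by 0.09 in hippocampus and 0.05 in brainstem. The striatal arrays of the 2 strains were well apart for Arhgef15, the second probe set gave -1.04, also called, and the difference between tissues passed for both (adjusted p = 2.11e-05 and 1.53e-05). Mylk, myosin light chain kinase, was higher by 0.88 in striatum and lower in hippocampus (-0.39, called there too).

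Slc18a2 differed by -4.55 in striatum, -2.88 in hippocampus and -1.20 in brainstem, and the effect differed from brainstem (adjusted p = 5.14e-05) but was not called different from hippocampus (adjusted p = 0.0983). Nts differed by -2.56 in striatum but by 0.45 in hippocampus and 0.10 in brainstem. Rad18, of DNA repair, differed by -0.65 in striatum, not called, and by -3.18 in hippocampus. H2-Bl, an MHC class I gene with close relatives on the array, differed by 0.12 in striatum and by 5.21 in brainstem. In striatum it was low in both strains, at means of 3.92 in C57L/J and 3.80 in C57BL6/J, against 9.88 and 4.66 in brainstem. For Slc17a7, Tbr1 and Neurod6 the hippocampal differences were 0.22, 0.30 and 0.19, and no difference between tissues was called, at striatal standard errors of 1.25 to 1.54.

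**Figure D5:**
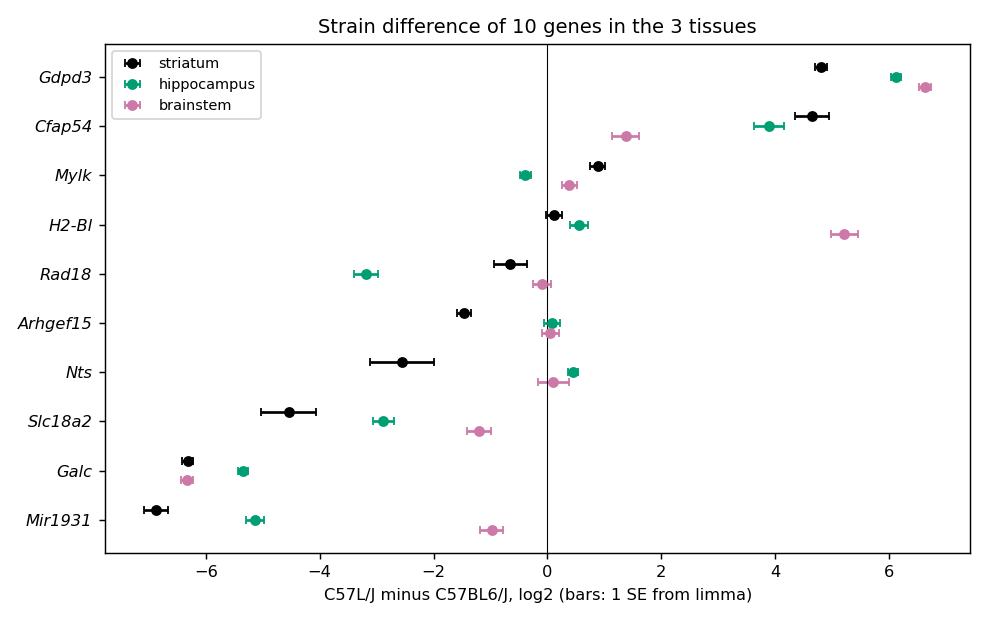
C57L/J minus C57BL6/J difference (log2, with 1 SE from limma) of 10 genes in striatum, hippocampus and brainstem; 8 are genes with the smallest p for a difference between tissues, and Slc18a2 and Nts were added after their values were seen. Mir1931 and Cfap54 differ least in brainstem, Arhgef15 and Nts are lower in striatum only among these 3 tissues, and Gdpd3 is higher in each.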

How the data were processed

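Tissue RNA was read on 54 Affymetrix mouse 3' arrays, 18 of them striatum. The deposited values are log2 expression per probe set, which the authors made in R 2.6.1, according to the submitters' processing notes, with affy 1.16.0, RMA, GCRMA 2.10.0 and limma 2.12.0. Whether RMA or GCRMA made them is unstated, and no array batch is labelled, so none was tested. The number of arrays limits the precision.

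Of 45101 probe sets, 34945 had 1 gene symbol, 932 several and 9160 none. The platform table's symbols were used, and the brightest probe set stood for each of 18193 genes. A gene was tested if 3 or more of the 18 arrays read it above their own 40th percentile. Differences came from limma 3.58.1 in R 4.3.3, fitted on all 18 striatum arrays with strain and testing as terms and an intensity trend, two-sided, with Benjamini-Hochberg adjustment over all genes tested. Differences between tissues came from a fit of all 54 arrays that ignores the shared mice. A bound sets the brighter group's mean against the 40th percentile of the other group's arrays, or their own level where higher. The script was tested on simulated data.

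Members and the 31 gene lists (379 genes, 354 with a probe set) were chosen with earlier results of these data known. List levels are means over tested members. Genes named by rule were Pdxdc1, the 12 highest and 12 lowest called differences without overlap, up to 4 called members of each list, defining markers, the 5 smallest p of each tissue comparison and the 5 widest gaps in each direction between the tested C57L/J array and the untested arrays. Other genes were named after their values were seen. Adora2a is not analysed here. RefSeq names, gene order and the microRNA sequence are of GRCm38.p6. Deviations from the strain means correlated across genes between same-numbered arrays of the 2 strains at r = 0.17, -0.12 and 0.36. The labels do not say how replicates were numbered, so whether the numbers pair the strains is not known. Alternatives covered scaling, filter, probe set, arrays, terms and weights.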

Additional observations from a re-analysis of the deposited data

Results flagged for a closer look

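The genes below had a strain difference (C57L/J minus C57BL6/J) that itself differed between striatum and another tissue in limma at an adjusted p under 0.05. Each value is the striatal difference minus the difference in the other tissue, on the log2 scale, and the tissues shared mice.

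Against hippocampus the value was below 0 for Nts (-3.01), Mir1931 (-1.74), Cap1 (-1.63), Arhgef15 (-1.55), Gdpd3 (-1.32), Rxrg (-1.15), Galc (-0.97) and Slc4a4 (-0.34). It was above 0 for Rad18 (2.53), Ccar2 (2.04), Pttg1 (1.30) and Mylk (1.27). For Ccar2, Pttg1 and Rad18, all lower in C57L/J hippocampus, the striatal difference was the smaller one. Rxrg, Nts and Cap1 had uneven C57L/J striatum arrays, in the order of the striatal markers for Rxrg and Nts.

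Against brainstem the value was below 0 for Mir1931 (-5.89), H2-Bl (-5.10), Slc18a2 (-3.34), Gm13306 (-2.82), Nts (-2.66), Etnppl (-2.64), Mid1 (-1.84), Gdpd3 (-1.83), Cap1 (-1.79), Junb (-1.76), Arhgef15 (-1.51), Wdfy1 (-0.83) and Slc4a4 (-0.40). It was above 0 for Cfap54 (3.27), Hhatl (1.98), Serpina3n (1.70) and Slc30a3 (1.23). Among the C57L/J striatum arrays, Cfap54, Hhatl, Serpina3n and Slc30a3 were all lowest on the tested one. Mir1931 was low in both strains in brainstem, and H2-Bl was low in both in striatum. What set these differences apart between tissues was not tested.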

How the results depend on the processing

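Array number and uneven C57L/J pools limit these results, and the causes were not tested. The main counts were 530 called (266 higher, 264 lower) and 164 over 2-fold. Quantile normalization, median centring, no filter, a 60th percentile filter and the mean of probe sets kept these counts within 1.5 times. So did no testing term, the replicate block (477 called) and no intensity trend, with 447 to 584 called over all these alternatives. The share called higher went from 50.2% to 39.7% with the mean of probe sets. In the same order (called, higher, lower, over 2-fold) the counts were 212, 91, 121 and 91 on the next brightest probe set, 138, 51, 87 and 86 on the 6 arrays alone, 1396, 882, 514 and 493 on untested pools alone, and 3868, 2272, 1596 and 415 with array quality weights. With the cortical marker level as covariate 342 were called, 154 higher. Without both untested C57L/J arrays (chosen after seeing the data; the lone C57L/J array is assumed to vary like other groups) the counts were 157, 63, 94 and 95. Without C57L/J untested 1, C57L/J untested 2 and C57BL6/J untested 2 the called counts were 333, 300 and 315, with 150, 131 and 145 higher, and 169 and 170 lower for the last pair. Leaving out 1 array gave 261 to 1884 called, 107 to 1114 higher, 154 to 770 lower and 129 to 534 over 2-fold.

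With 1 array left out, 261 to 1884 of all 12320 genes were called. Called striatal markers then numbered 0 to 20 and called cortical markers 0 to 13. Without both untested C57L/J arrays they were 0 and 1, with a cortical median of -0.021, and median centring left 1 cortical marker. The count of tissue differences ran from 37 to 1151 against hippocampus and from 60 to 1338 against brainstem with 1 array left out, was 38 against hippocampus without C57L/J untested 2, and was 35 and 30 without both.

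Signs turned as follows. On the mean of probe sets Slc15a2 was at -0.90, and on the next probe set Slc15a2 was at -0.75, Galc 1.08, Slc1a3 0.10, Grin2b 0.033 and Fst -0.031. On untested pools alone Pdxdc1 was at 0.048, H2-Bl -0.0062 and Dcn -0.022. Without the tested C57L/J array Pdxdc1 was at 0.053, H2-Bl -0.043, Dcn -0.13 and Fst -0.39. Without C57L/J untested array 2 Penk was at 0.020, and without C57BL6/J untested array 2 Fst was at -0.12. With weights Pdxdc1 was at 0.026, H2-Bl -0.0051 and Fst -0.13. With the covariate Slc17a7 was at -0.067, Tbr1 -0.12 and Neurod6 -0.70. Without both untested C57L/J arrays Drd1 was at 0.0066, Drd2 0.025, Penk 0.093, Tac1 0.030, Slc17a7 -0.13, Tbr1 -0.42, Neurod6 -0.76 and Cadps2 -0.26. Of these genes only Slc15a2, Galc, Slc1a3 and Grin2b were called in the comparison as reported.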
